A study of Mus musculus with 7 samples.

Results

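The somatostatin (Sst) GABAergic interneurons of primary hippocampal cultures are described here. They were chosen by their counts: at least 1 UMI (unique molecular identifier, 1 captured RNA molecule) of each of Gad1 and Gad2, which encode the enzymes that make GABA, at least 3 of both together, at most 2 UMIs of the glutamatergic neuron genes Neurod2 and Neurod6 together, and at least 5 UMIs of Sst. This gate held 56 of 26709 cells (0.210%). They were 17 cells in the DIV1 library, 1 and 2 in DIV3 replicates 1 and 2, 12 and 15 in DIV5 replicates 1 and 2, and 7 and 2 in DIV7 replicates 1 and 2. Sst, Gad1, Gad2, Neurod2 and Neurod6 therefore chose the cells, and their values are given as a description with no test.

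The cultures were made from hippocampi of mice at postnatal day 0, dissociated with trypsin and grown on poly-D-lysine-coated glass in medium with serum and B-27 supplement, with no treatment named. Single cells were taken after 1, 3, 5 and 7 days in vitro (DIV), with 1 library at DIV1 and 2 at each later day, and counted with the 10x 3' v2 assay, which reads the 3' end of each RNA. Strain, sex, and whether replicates are separate cultures or pooled animals are not given in the sources used here, so the p-values reflect the spread of these libraries alone, and that spread can be technical. The libraries hold 3009 to 5401 barcodes, and the median barcode has 6988 to 19595 UMIs. Barcodes were kept when they showed 500 or more genes and no more than 10% of UMIs from mitochondrial genes. Pairs of libraries share 12 to 37 cell barcodes.

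Somatostatin interneurons are inhibitory neurons that arise in the medial ganglionic eminence (MGE) of the embryonic forebrain under the transcription factor Lhx6 and migrate into the hippocampus. There they mostly contact the dendrites of pyramidal cells and release the peptide somatostatin, often together with neuropeptide Y (Npy), beside GABA. Interneurons of the caudal ganglionic eminence (CGE), the other main source, express genes such as Adarb2, Cnr1 and Vip. Somatostatin transcription is a textbook case of a cyclic AMP response element (CRE) placed just before a gene, the letters TGACGTCA.

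The stretches of 250 bases before the transcription start of 3 peptide genes that the cells carried are shown because they let a reader see where that element lies. They come from RefSeq on GRCm38.p6, another build than the mm9 that the submitters' processing notes name for the deposited counts. Sst lies at chr16:23890845-23891094 on the minus strand, Cartpt at chr13:99900684-99900933 on the minus strand and Npy at chr6:49822460-49822709 on the plus strand. Capitals mark TGACGTCA, which reads the same on both strands. It was found from 48 to 41 bases before the start of Sst and from 112 to 105 bases before that of Cartpt. The Npy window holds no copy, nor do those of the peptide genes Cort and Tac1, which are not printed. Of 32851 such windows in the table, 508 (1.55%) hold it. A match describes letters, not a used site.
Sst: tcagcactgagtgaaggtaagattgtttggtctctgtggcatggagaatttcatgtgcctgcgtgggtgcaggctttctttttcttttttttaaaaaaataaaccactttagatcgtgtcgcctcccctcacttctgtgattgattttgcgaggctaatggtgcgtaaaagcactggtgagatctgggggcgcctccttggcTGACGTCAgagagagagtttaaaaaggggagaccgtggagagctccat
Cartpt: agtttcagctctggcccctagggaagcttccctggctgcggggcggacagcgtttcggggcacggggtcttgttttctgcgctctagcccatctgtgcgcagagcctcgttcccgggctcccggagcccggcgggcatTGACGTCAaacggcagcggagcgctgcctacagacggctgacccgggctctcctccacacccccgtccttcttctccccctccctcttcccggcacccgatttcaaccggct
Npy: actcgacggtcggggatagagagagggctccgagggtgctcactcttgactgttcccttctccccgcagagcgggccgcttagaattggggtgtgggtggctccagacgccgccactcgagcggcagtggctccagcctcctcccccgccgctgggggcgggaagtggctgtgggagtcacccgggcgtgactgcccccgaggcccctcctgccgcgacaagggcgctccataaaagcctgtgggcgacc

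The 56 cells carried 5 to 360 Sst UMIs each, with a median of 44. In single libraries the median was 76 at DIV1 (11 to 259 over 17 cells), 12 in the only cell of DIV3 replicate 1, 21 in DIV3 replicate 2 (6 and 36), 25.5 and 86 in DIV5 replicates 1 and 2 (5 to 308 and 9 to 360), 26 in DIV7 replicate 1 (6 to 141) and 181.5 in DIV7 replicate 2 (5 and 358). Cells with few and with many Sst UMIs lay side by side in every library of 7 or more cells. Sst made up 0.531% of a cell's UMIs at the median and 5.63% in the highest cell. Near the threshold, the GABAergic cells with 2, 3 and 4 Sst UMIs numbered 4, 2 and 3, and those with 5, 6, 7 and 8 numbered 2, 2, 1 and 1. In all 8 of the cells had under 10 Sst UMIs and 16 had 100 or more. Gad1 ranged from 1 to 21 UMIs a cell and Gad2 from 1 to 15. At least 1 Sst UMI was seen in 10 of 857 microglia (1.17%), a cell type that should lack it, and no microglial cell reached 5. The median depth of microglia was 12181.5 to 30527 UMIs by library, above that of the Sst cells in 6 of 7 libraries.

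Markers that the gate did not use bear on the label. Lhx6 was detected in 45 of the 56 cells, Maf, another transcription factor of MGE interneurons, in 49, and Nxph1, a secreted ligand of neurexins, in 48. Among the 210 other GABAergic cells, which pass the same gate with at most 1 Sst UMI, Lhx6 was detected in 40.5%, Nxph1 in 46.2% and Maf in 76.7%, against 80.4%, 85.7% and 87.5% of the Sst cells. In microglia Lhx6 was detected in 0.350% and Nxph1 in 0.933%, but Maf in 75.1%, so detection of Maf hardly separates the Sst cells from either. The vesicular GABA transporter Slc32a1 was detected in 41 cells. Of the vesicular glutamate transporters, Slc17a6 was at 0 in all 56 cells and Slc17a7 was found as 1 UMI in 1 cell. The microglial gene C1qa, the CGE peptide Vip, and Nos1 and Lhx8 were at 0 in every cell, and the parvalbumin gene Pvalb was seen as 1 UMI in 1 cell. Vip was detected in only 6 of the 210 other GABAergic cells and Lhx8 in 0, so their zeros hardly separate the Sst cells. Of other genes of the CGE list, Nr2f2 was detected in 19 of the 56 cells, Cck in 14 and Htr3a in 9. These were 33.9%, 25% and 16.1% of the Sst cells, against 46.7%, 36.7% and 21.9% of the other GABAergic cells. For each gene at 0, 0 of 56 cells allows a share of cells with a UMI of up to roughly 5.36%. This bound is an approximation, not the exact interval used for the shares, and takes the cells as independent. The progenitor factor Nkx2-1, which precedes Lhx6 in the MGE, was found in 1 cell. A further count, made after the values were seen, found 4 of the 56 cells with 10 or more UMIs of a marker list of another cell type (oligodendrocyte, fibroblast, microglia, ciliated, mural or cycling). One DIV1 cell had 23 UMIs of the fibroblast list and 165 of Sst. Another DIV1 cell had 94 UMIs of the cycling list and 16 of the oligodendrocyte list. One cell of DIV5 replicate 1 had 640 UMIs of the oligodendrocyte list and 10 of Sst, and one of DIV5 replicate 2 had 48 of the cycling list and 397 of the glial list. The CGE and striatal lists were not part of that count. Outside it, a DIV5 replicate 1 cell with 5 Sst UMIs had 20 UMIs of the striatal list and 18 of the somatostatin list. A DIV5 replicate 2 cell with 9 Sst UMIs had 43 of the CGE list and 39 of the somatostatin list.

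Sst cells were a small and uneven share of the cultures. They made up 0.415% of all kept cells at DIV1 (exact Clopper-Pearson 95% interval 0.242 to 0.664), 0.0194% and 0.0705% in DIV3 replicates 1 and 2, 0.279% and 0.388% in DIV5 replicates 1 and 2, and 0.237% and 0.0569% in DIV7 replicates 1 and 2. Of the GABAergic cells, which pass the same gate with any Sst count, they were 17 of 62 at DIV1 (27.4%, interval 16.9 to 40.2), 1 of 22 and 2 of 14 in the DIV3 libraries, 12 of 63 (19.0%) and 15 of 56 (26.8%) in those of DIV5, and 7 of 41 (17.1%) and 2 of 17 (11.8%) at DIV7. Among all kept cells DIV3 replicate 1 was lowest, and its interval (upper bound 0.108) lay below those of DIV1 and both DIV5 libraries. The interval of DIV7 replicate 2 (upper bound 0.206) lay below those of DIV1 and DIV5 replicate 2. Among GABAergic cells the intervals of all 7 libraries overlapped. All these intervals cover counting error only, not the spread between libraries of the same day.

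Neither share followed the day in a straight line. Among all cells Pearson's r with the day was -0.191 over 7 libraries (exact two-sided permutation p = 0.683) and Spearman's rho was -0.239 (exact permutation p = 0.616). Among GABAergic cells r was -0.189 (exact permutation p = 0.663, Benjamini-Hochberg adjusted over both shares 0.683) and rho was -0.239. Dropping the 2 libraries whose day is farthest from the median (DIV1 and any 1 of the 4 tied ones) gave r between 0.0359 and 0.680 among all cells and between -0.169 and 0.540 among GABAergic cells. The sign of r turned to 0.398 and 0.334 with a stricter cell filter and to 0.308 and 0.300 without the DIV1 library, and among all cells to 0.0253 without DIV7 replicate 2. The Sst gate is an absolute count, so cells were also thinned to 4000 UMIs. The thinned gate kept 9, 0, 1, 3, 6, 3 and 0 Sst cells of 30, 9, 6, 38, 35, 22 and 13 GABAergic cells in the order above, and r was -0.409 among all cells and -0.544 among GABAergic cells.

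**Figure D1:**
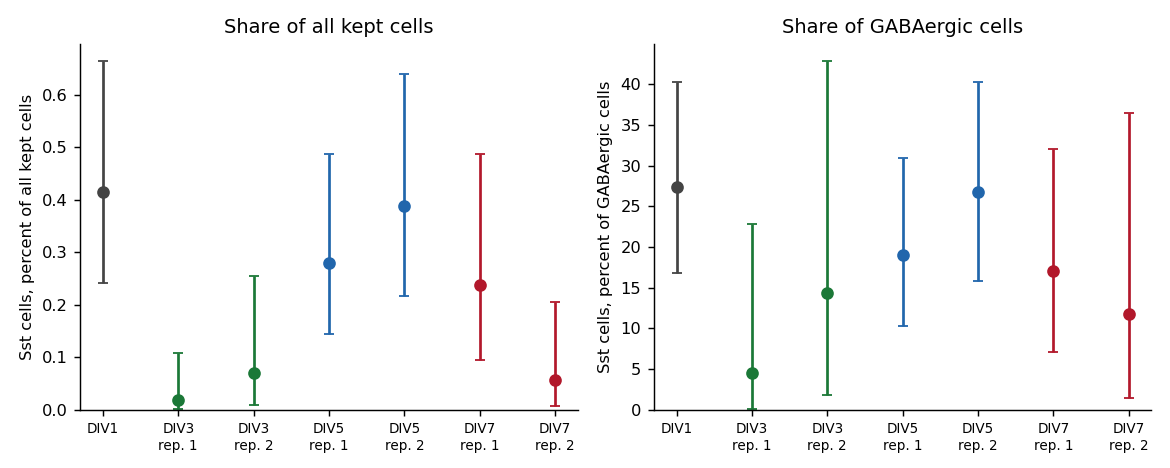
Sst cells as a percent of all kept cells (left) and of GABAergic cells (right) in each of the 7 libraries, with exact Clopper-Pearson 95% binomial intervals as bars, which cover counting error only. The DIV3 libraries, with 1 and 2 Sst cells, are low among all cells, and DIV1 and DIV5 replicate 2 lie at 27.4% and 26.8% of GABAergic cells. Without the limit on Neurod2 and Neurod6, which is not drawn, these would be 36.0% and 27.6%. With Gad1 and Gad2 at 1 UMI together, also not drawn, they would be 20% and 12.2%.

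The limit on Neurod2 and Neurod6 acted mainly at DIV1. Of 159 cells with at least 5 Sst UMIs, 26 passed the Gad1 and Gad2 gate but had over 2 UMIs of Neurod2 and Neurod6, and 24 of those were in the DIV1 library. A further 34 had no UMI of either Gad gene, and 43 had fewer Gad UMIs than the gate asks, 33 of them in the DIV1 library. Without the Neurod limit, DIV1 held 41 Sst cells, 1.00% of all kept cells and 36.0% of the GABAergic cells. DIV5 replicates 1 and 2 then held 12 and 16 Sst cells, and DIV7 replicates 1 and 2 held 7 and 2. Pearson's r with the day became -0.545 among all cells and -0.415 among GABAergic cells (exact permutation p = 0.232 and 0.337). A gate of Gad1 and Gad2 at 1 UMI together, chosen after the data were seen, also moved the shares. DIV1 then held 35 Sst cells, 0.854% of all kept cells and 20% of the GABAergic cells. Under that gate r was -0.454 and -0.510 (exact permutation p = 0.317 and 0.254).

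Npy was detected in 46 of the 56 cells, with up to 131 UMIs in a cell, and 9 cells held more Npy than Sst UMIs. The median was 2 UMIs at DIV1, 14 in the DIV3 replicate 1 cell, 53 in DIV3 replicate 2, 6.5 and 41 in DIV5 replicates 1 and 2, 11 in DIV7 replicate 1 and 67 in DIV7 replicate 2. All 15 cells of DIV5 replicate 2 had Npy, against 10 of 17 at DIV1, where cells were shallowest (median 5669 UMIs, against 13428 in DIV5 replicate 2). In cells thinned to 4000 UMIs Npy was seen in 40 of 51 (78.4%) Sst cells, and in microglia thinned alike in 26 of 823 (3.16%).

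Cort encodes cortistatin, a peptide close to somatostatin. It was detected in 30 of the 56 cells but unevenly: in 15 of 17 cells at DIV1 (up to 48 UMIs), in 8 of 15 cells of DIV5 replicate 2 (up to 45), and in 3 of 12 cells of DIV5 replicate 1, 2 of 7 of DIV7 replicate 1 and 1 of 2 of DIV7 replicate 2, where no cell had over 2 UMIs. Its level over the Sst cells was 1634 CPM (counts per 1000000 UMIs of the class in that library) at DIV1, 28.7 and 622 at DIV5, and 18.9 and 48.7 at DIV7. On a fold scale the replicates of DIV5 differed by more than DIV5 replicate 2 did from DIV1. Npy and Cort were seen together in 24 cells, Npy alone in 22, Cort alone in 6 and neither in 4.

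Pnoc, the precursor of nociceptin, was found in 45 cells with a median of 4.5 UMIs. Tac1, the precursor of substance P, was found in 14 cells, and the 2 highest, at 26 and 25 UMIs, were in DIV1 and DIV5 replicate 2. Cartpt, the precursor of the peptide CART, was found in 23 cells with up to 22 UMIs. Reln, a secreted glycoprotein of part of the Sst interneurons of the adult hippocampus, was found in 37 cells, and the calcium-binding protein gene Calb1 in 12. These genes were each carried by part of the cells only, in every library of 7 or more cells for Pnoc and Reln. Pnoc, Tac1, Cartpt, Reln and Calb1 were detected in 80.4%, 25%, 41.1%, 66.1% and 21.4% of the Sst cells. In the other GABAergic cells these shares were 80%, 23.3%, 20.5%, 54.3% and 18.6%, so only Cartpt differed widely in detection.

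**Figure D2:**
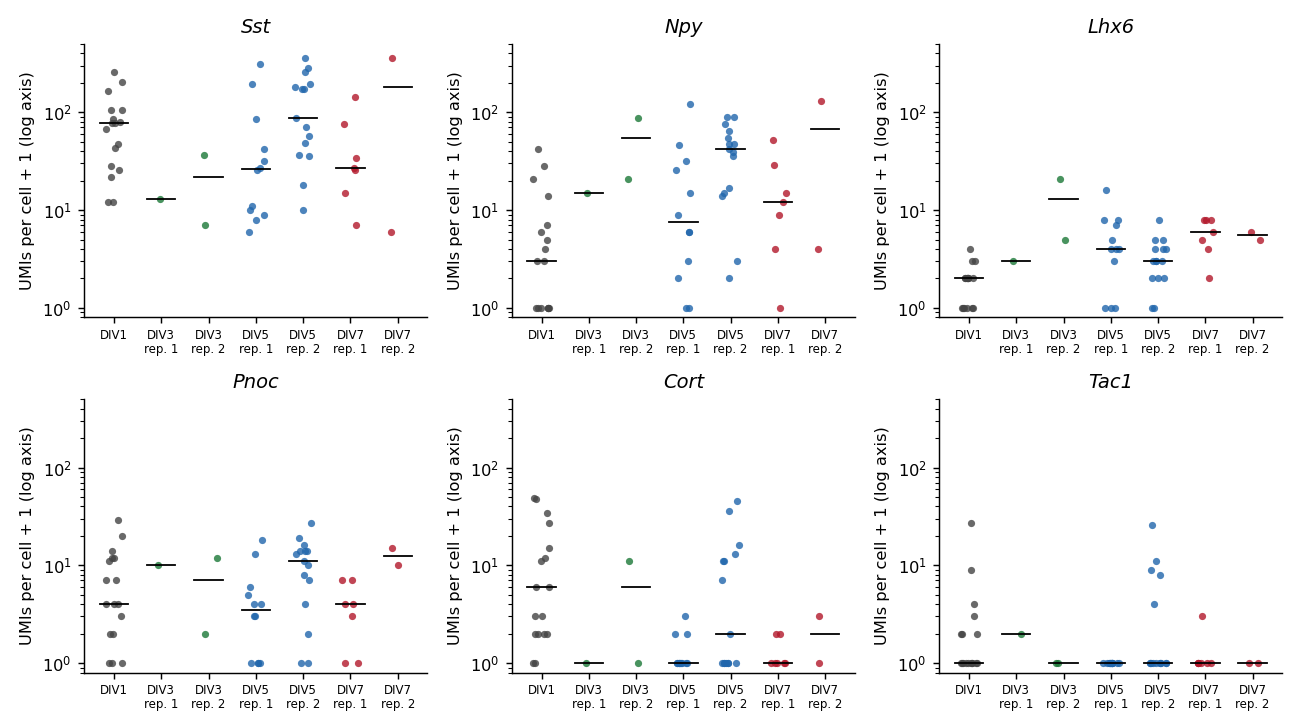
UMIs per Sst cell of 6 genes in each library, drawn as UMIs + 1 on a log axis, 1 point per cell, with the library's median as a line. Sst, which chose the cells, and Npy spread over more than a factor of 10 within the larger libraries, and high Cort counts are in DIV1 and DIV5 replicate 2, beside the DIV3 replicate 2 cell with 10 UMIs.

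Sst cells were next compared with the other GABAergic cells of the same libraries, which pass the same gate with at most 1 Sst UMI. UMIs were summed per library and class, and 3 libraries with at least 10 cells in both sums entered the fit (DIV1, DIV5 replicates 1 and 2), with 44 Sst and 132 other cells. Of 3821 genes tested, 48 (1.26%) passed edgeR's quasi-likelihood test with the library as a block at a Benjamini-Hochberg adjusted p under 0.05. Of these, 21 were higher in Sst cells and 27 lower. The median log2 difference of all tested genes was 0.01. In 46 of the 48 genes the difference had the same sign in all 3 libraries. The calls were made on these same libraries, so that agreement is no independent check. The count moved to 164 without DIV1 and to 26 without DIV5 replicate 2, and DESeq2 called 14. Without cells of either class that held markers of other types, 36 genes were called, and 30 of the 44 of the 48 that were tested remained.

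Npy rose with the smallest p of the 48. Its level was 971, 1850 and 2873 CPM in Sst cells of DIV1 and DIV5 replicates 1 and 2, against 196, 380 and 527 CPM in the other cells of those libraries. Every Sst value lay above every other value. The log2 difference was 2.39 ± 0.14 (SE; edgeR adjusted p = 2.3e-09). In the libraries outside the fit Npy was higher in Sst cells at DIV3 (1451 against 200 CPM, and 3463 against 598) and in DIV7 replicate 2 (3263 against 1117). It was lower in DIV7 replicate 1, at 1084 against 1775 CPM. When that library, with 7 Sst cells, was added, Npy no longer passed (1.63, edgeR adjusted p = 0.647).

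Of the 14 tested genes of the somatostatin interneuron list, 6 rose and 1 fell, with a median log2 difference of 0.68. Beside Npy they were Satb1, a chromatin organiser needed for the maturation of these cells (2.45 ± 0.52), Lhx6 (1.33 ± 0.28), Nxph1 (1.20 ± 0.23), Maf (0.69 ± 0.16) and Mef2c, an activity-responsive transcription factor (0.66 ± 0.15). Mef2c is also on the glutamatergic neuron list, where it was the only gene called of 2 tested. Lhx6 stood at 118, 359 and 162 CPM in Sst cells and at 48.0, 102 and 98.8 CPM in the others, and was also higher in all 4 libraries outside the fit. Nxph1 stood at 355, 186 and 269 CPM against 104, 127 and 117 CPM, likewise higher in all 4. Maf and Mef2c were higher in 3 of those 4 and Satb1 in 2. Reln, a member of this list and of the CGE list, fell (-1.26 ± 0.27), with 158, 100 and 139 CPM against 180, 272 and 500 CPM. Cort was not called, at 4.47 ± 0.83 (edgeR adjusted p = 0.318), with 1634, 28.7 and 622 CPM against 12, 5.75 and 55.6 CPM. Tac1 (0.61 ± 1.32) was not called either. With DESeq2 the calls of Lhx6 (adjusted p = 0.289), Nxph1 (0.236), Mef2c (0.240) and Reln (0.436) were lost, and Mef2c (0.469) and Reln (0.139) were also lost in edgeR without cells holding markers of other types.

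Other genes that rose by the most were Alkal2, a ligand of the receptor ALK (2.76 ± 0.35), Rasl11a, a small GTPase (2.24 ± 0.31), Mpped2, a metallophosphoesterase (2.20 ± 0.29), Klf5, a zinc finger transcription factor (1.94 ± 0.26), Runx1t1, a transcriptional corepressor (1.57 ± 0.34), Grm5, the metabotropic glutamate receptor mGluR5 (1.33 ± 0.25), and Serpini1, the secreted protease inhibitor neuroserpin (1.22 ± 0.27). Klf5 was at 174, 172 and 325 CPM in Sst cells and at 56.0, 36.4 and 90.5 CPM in the others. Mpped2 was at 111, 452 and 218 CPM against 56.0, 88.2 and 35.0 CPM. Alkal2 was at 221, 43.0 and 218 CPM against 36.0, 1.92 and 37.0 CPM. For all 3 the Sst value was higher in each fitted library, and 1 cell gave at most 16.9% of the UMIs that the Sst cells held of any of them. For Rasl11a, 1 cell gave 28.7% of those UMIs. The calls of Alkal2, Rasl11a, Mpped2 and Klf5 were kept under every alternative that tested them. In the 4 libraries outside the fit, Mpped2 and Serpini1 were higher in Sst cells in 3. Alkal2, Rasl11a, Klf5, Runx1t1 and Grm5 were higher in only 2 of those 4. In DIV7 replicate 2 Alkal2 was at 0 against 101 CPM and Klf5 at 48.7 against 151 CPM. The precursor gene Cartpt also rose (1.14 ± 0.23), with UMIs in 17 of the 44 Sst cells, and with Npy and Nxph1 made 3 called of 7 tested genes of the neuropeptide list. DESeq2 did not call Cartpt (adjusted p = 0.381), Runx1t1 (0.536), Grm5 (0.076) or Serpini1 (0.536).

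Glutamate receptor genes included 4 called members, all higher in Sst cells, of 14 tested, with a median log2 difference of 0.44 for the list. They were Grm5, Gria1, a subunit of AMPA receptors (1.07 ± 0.19), and Cacng3 (1.46 ± 0.35) and Cnih2 (0.92 ± 0.19), both auxiliary proteins of AMPA receptors. Gria1 was at 253, 294 and 469 CPM in Sst cells and at 88.0, 186 and 220 CPM in the others, and was higher in Sst cells in all 7 libraries. Cacng3 and Cnih2 were higher in both DIV5 libraries but not at DIV1, where Cacng3 was at 7.89 against 16 CPM and Cnih2 at 23.7 against 36.0 CPM. DESeq2 called neither Gria1 (adjusted p = 0.199) nor Cacng3 and Cnih2, and without DIV5 replicate 2 edgeR did not call Gria1 (0.0944). No gene of the microglial list passed the count filter, and that list summed to between 0 and 37.7 CPM in Sst cells and between 0 and 142 CPM in the others over the 7 libraries.

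The genes that fell in Sst cells included CGE markers. Of 12 tested genes of the CGE interneuron list 4 fell, none rose, all 12 had a negative difference, and their median was -1.73. Adarb2, an RNA-binding protein of the editing enzyme family, was at 31.6, 7.17 and 41.8 CPM in Sst cells and at 424, 315 and 198 CPM in the others (-3.26 ± 0.34). Cnr1, the cannabinoid receptor CB1, was at 47.4, 14.3 and 69.6 CPM against 284, 447 and 220 CPM (-2.62 ± 0.39). The chemokine Cxcl14 was at 0, 35.9 and 4.64 CPM against 124, 205 and 200 CPM (-3.77 ± 0.48). These 3 were lower in Sst cells in all 7 libraries. Adarb2 UMIs were found in 4 of 44 Sst cells and 78 of 132 other cells. Adarb2 and Cxcl14 were called under every alternative fitted, while Cnr1 was lost without the Neurod limit (-1.47, edgeR adjusted p = 0.886).

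Glial genes were lower too. Of 14 tested genes of the radial glia and astrocyte list 4 fell, none rose and all 14 had a negative difference, with a median of -1.03. They were Gfap, an astrocyte filament protein (-2.05 ± 0.29), the transcription factor Sox9 (-2.11 ± 0.28), the glutamate transporter Slc1a2 (-1.79 ± 0.39) and Fabp7, a fatty acid binding protein of radial glia (-1.30 ± 0.28). Sox9 was at 71.0, 21.5 and 116 CPM in Sst cells and at 152, 240 and 516 CPM in the others. The whole list of 26 genes summed to 1895, 1556 and 3426 CPM in Sst cells and to 3143, 4906 and 4621 CPM in the others. Of the Gfap UMIs of the other cells 38.6% came from 1 cell. Without the top doublet scores the difference of Gfap was -0.23 (edgeR adjusted p = 0.932), that of Fabp7 -0.58 (0.630) and that of Slc1a2 -1.43 (0.110), while Sox9 was still called. The glial list thus moved with the class comparison, and its part in the other differences was not tested.

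Further genes among the largest falls were Thy1, a neuronal surface glycoprotein (-2.84 ± 0.51), Sv2c, a synaptic vesicle protein (-2.72 ± 0.46), Sema3c, a secreted guidance cue (-2.20 ± 0.38), Nfia, a transcription factor of the nuclear factor I family (-1.93 ± 0.28), and Uri1, a prefoldin-like protein (-1.90 ± 0.46). Sv2c was the only called member of 36 tested genes of the presynaptic list. Of the GABAergic core list 1 of 9 tested genes was called, the non-coding Dlx6os1 (-1.15 ± 0.20), and of 6 tested genes for GABA synthesis, packaging and uptake none was. Slc32a1 did not pass (-0.03 ± 0.20, edgeR adjusted p = 0.977). Of 13 tested GABA-A receptor genes and 14 tested genes of dense-core vesicles and peptide processing none was called. Over all 3821 tested genes 48 (1.26%) were called, so none or 1 call in lists this short says little about them.

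The same comparison was read in the 4 libraries that the fit did not use (DIV3 and DIV7), with 12 Sst and 78 other cells in all. Of the 48 called genes 47 differed in the same direction in their pooled sums, and Reln did not. Over all 3821 tested genes 55.1% did. Taken library by library, 16 of the 48 kept the direction in all 4, 21 in 3 and 11 in 2. The Sst cells were somewhat deeper than the other cells in 6 of 7 libraries, with medians of 5669 against 4338 UMIs at DIV1 and 10698 against 10029 in DIV5 replicate 1.

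**Figure D3:**
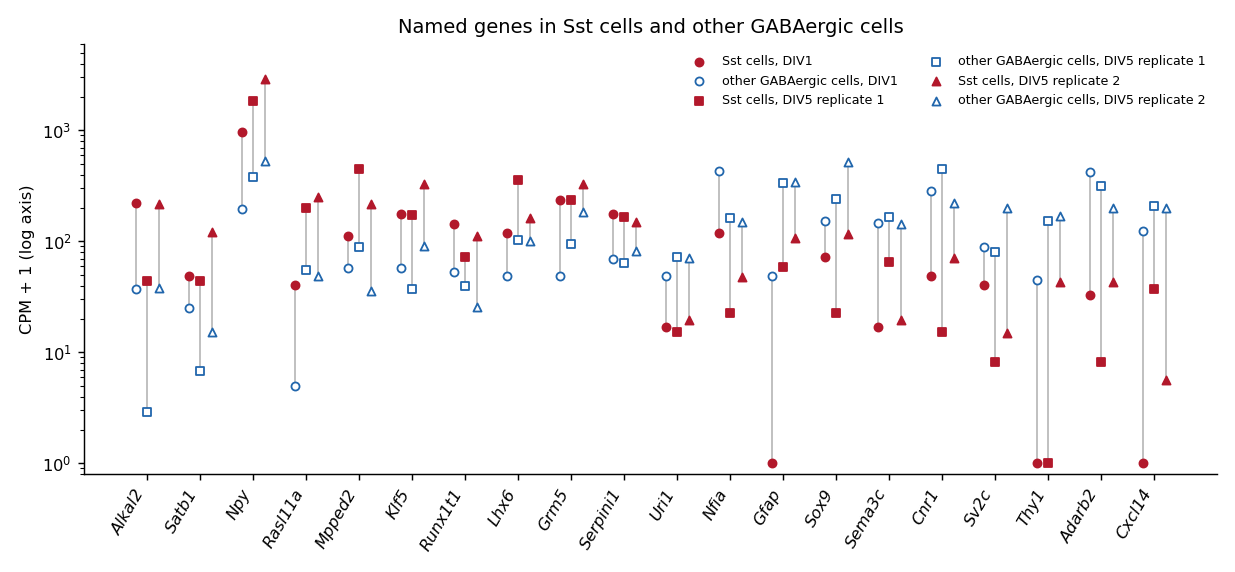
CPM + 1 on a log axis of the 10 largest rises and 10 largest falls among called genes, in Sst cells (filled) and other GABAergic cells (open) of the 3 fitted libraries, with the values of a library joined by a line. Npy lies at 971 to 2873 CPM in Sst cells, and the filled points lie below the open ones for the 10 genes from Uri1 to Cxcl14.

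Changes over days could be tested in few libraries. Only DIV1 (17 cells) and DIV5 (12 and 15 cells) reached 10 Sst cells per library, so DIV1 and DIV5 were compared, a comparison chosen after the cell numbers were seen. Of 3210 genes, 3 (0.0935%) passed edgeR's test with 1 residual degree of freedom, all lower at DIV5, and 415 had an unadjusted p under 0.05. They included Crct1 (edgeR adjusted p = 0.0103) and Lgals1, galectin 1 (adjusted p = 0.0475). A single DIV1 cell held 77 of 77 Crct1 UMIs and 54 of 69 Lgals1 UMIs. It is the cell with 23 UMIs of the fibroblast list, and its doublet score, 0.244, was the highest of the 56. With the top doublet scores removed no gene was called (382 at an unadjusted p under 0.05).

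Without the 4 cells that held markers of other types, 73 of 2867 genes were called, 50 higher and 23 lower at DIV5, under a setting chosen after the data were seen. Cnih2 then stood at 11.1 CPM at DIV1 and at 701 and 456 CPM in the DIV5 libraries. With those cells kept (44 Sst cells in the 3 libraries) its log2 change was 4.38 ± 0.57 (edgeR adjusted p = 0.0573). The nuclear factor I genes Nfix, at 488 CPM against 24.7 and 31.1 CPM, and Nfib, at 554 CPM against 74.2 and 88.2 CPM, were among the largest falls. With those cells kept their changes were -2.98 ± 0.58 (adjusted p = 0.181) and -2.14 ± 0.43 (adjusted p = 0.191). The Sst cells of DIV1 were also shallower, with a median of 2219 detected genes, against 3228.5 and 3736 at DIV5. DIV1 is a single library, so day, depth and the make-up of that library cannot be told apart in this comparison. The fit without the 4 cells also had 1 residual degree of freedom.

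From DIV5 to DIV7, with DIV7 replicate 1 (7 cells) as the only DIV7 library of at least 5 cells, 0 of 3343 genes (0%) passed edgeR's test, 152 had an unadjusted p under 0.05, and DESeq2 also called 0. The values of genes of inhibitory neurons are given library by library for these days. Slc32a1 had 118 CPM on DIV1, then 0 and 163 CPM in the DIV3 libraries, 222 and 251 CPM in those of DIV5 and 321 and 170 CPM in those of DIV7. Its log2 changes were 0.92 ± 0.42 from DIV1 to DIV5 (edgeR adjusted p = 0.412) and 0.44 ± 0.35 from DIV5 to DIV7 (adjusted p = 0.891). Slc12a5, the chloride exporter KCC2 that makes GABA inhibitory in mature neurons, was detected in 1 of 17 cells at DIV1, 4 of 12 and 9 of 15 at DIV5 and 7 of 7 and 1 of 2 at DIV7, and was at 0 in all 3 cells of DIV3. It stood at 7.89 CPM at DIV1, 43.0 and 74.3 CPM at DIV5 and 132 and 24.3 CPM at DIV7, and neither change passed (adjusted p = 0.515 and 0.891).

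Gria1 had 253 CPM on DIV1, with 311 and 653 in the DIV3 libraries, 294 and 469 in those of DIV5 and 481 and 463 in those of DIV7. Sox11, a transcription factor of immature neurons, had 1074 CPM on DIV1, with 207 and 1176 in the DIV3 libraries, 803 and 710 in those of DIV5 and 1075 and 170 in those of DIV7. The Sox11 values of the DIV3 replicates and of the DIV7 replicates lay as far apart as its days, with libraries of 1 or 2 cells in both pairs. Those of DIV5 lay close together. Sox11 was detected in 55 of the 56 cells. Dcx, a microtubule protein of migrating neurons, was detected in 53 cells. Pnoc had 924 CPM on DIV1, with 933 and 392 in the DIV3 libraries, 344 and 678 in those of DIV5 and 189 and 560 in those of DIV7, and its log2 changes of -0.92 from DIV1 to DIV5 and -1.44 from DIV5 to DIV7 did not pass (edgeR adjusted p = 0.410 and 0.891). Without the 4 cells holding markers of other types Pnoc was among the 23 genes called lower at DIV5 than at DIV1. For these genes the DIV3 libraries and DIV7 replicate 2, with 1 or 2 cells each, give the value of those cells rather than of a group.

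**Figure D4:**
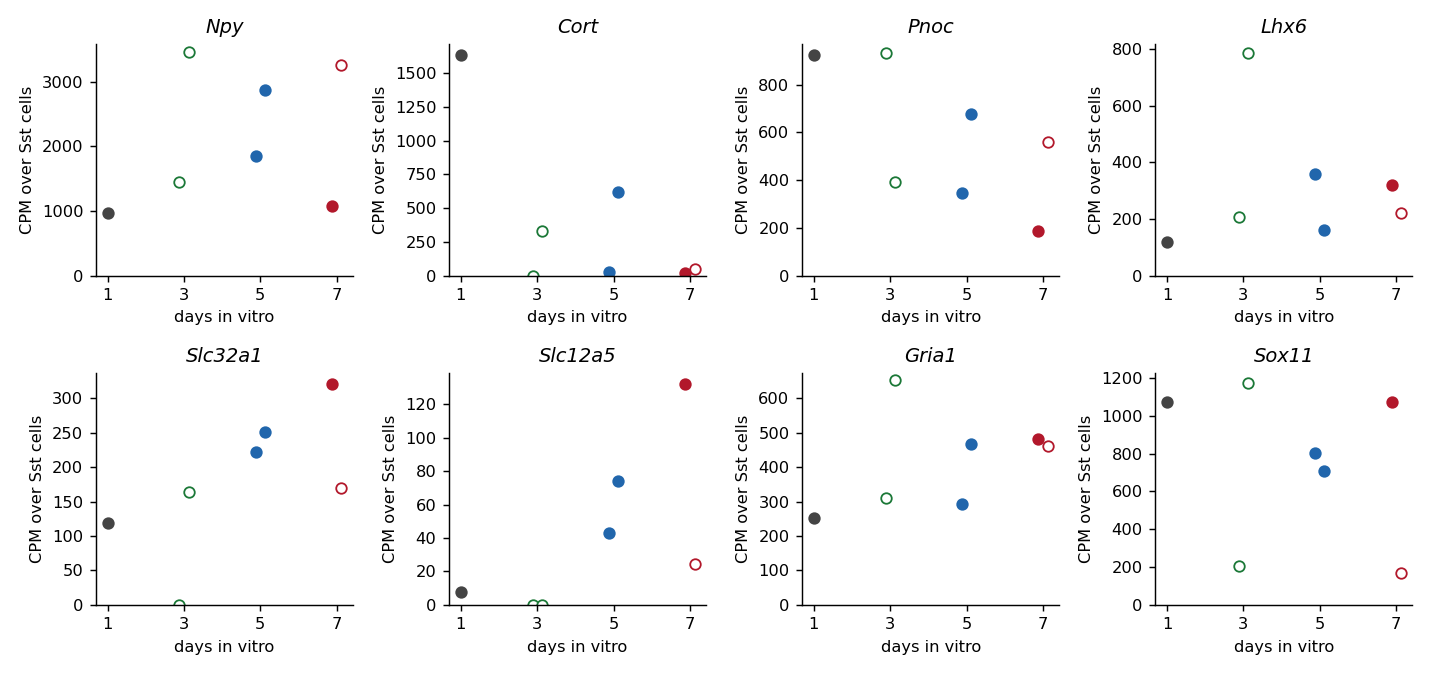
CPM of 8 genes over the Sst cells of each library by day in vitro, 1 point per library. Open points are libraries with 1 or 2 Sst cells (DIV3 and DIV7 replicate 2). Cort is highest at DIV1 (1634 CPM), Slc12a5 lies at 132 CPM in DIV7 replicate 1 and at 24.3 CPM in replicate 2, and none of these 8 genes was called in the DIV1 to DIV5 comparison over 3 libraries or the DIV5 to DIV7 comparison over 4 libraries.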

How the data were processed

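Single-cell RNA was counted in 7 libraries. The authors deposited raw UMI counts per gene and barcode, whole numbers without normalization, made with Cell Ranger 4.0.0 against mm9, per the submitters' processing notes. The headers of the count matrices name another software version. The genome build was taken from those notes and was not checked. Whether those steps removed doublets is not given in the sources used here. Members and gene lists were chosen with earlier results of these data known.

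Quality filters and the gate were applied in Python 3.11.15 (scipy 1.17.1). Scrublet (scanpy 1.11.5) called 137 of 28846 barcodes (0.475%), too few to have worked, so no doublets were removed, and removal of the 977 highest scores was an alternative. Sums of UMIs per library and class went into edgeR 4.0.16 under R 4.3.3 with TMM scaling, filterByExpr and robust quasi-likelihood F tests (two-sided), Benjamini-Hochberg over all genes tested, called under 0.05. DESeq2 1.42.0 was an alternative. The SE is the log2 difference divided by the square root of F. CPM are UMIs per 1000000 UMIs of the class in the library, without TMM, from a 3' assay, and compare samples, not genes. The planned comparisons DIV3 to DIV7, DIV3 to DIV5, DIV1 to DIV3, DIV5 to DIV7 and of day by class needed 10 cells per library sum and could not be fitted, and DIV5 to DIV7 is given with 5 cells per sum. DIV1 to DIV5 was added.

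Named genes are the 10 largest rises and falls among called genes with a mean of at least 50 CPM in the higher group and no overlap between groups (classes: the same sign in every library), leaving out predicted, haemoglobin, ribosomal and mitochondrial genes, the called list members with the smallest p, and textbook genes. The fits were run on simulated counts with the same fixed spread for every gene. That setting lacks genes whose UMIs come mostly from a single cell, which these sums hold. Some genes are not reported here.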

Additional observations from a re-analysis of the deposited data

Results flagged for a closer look

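Signal in cells that no comparison used: 27 cells held at least 5 Sst UMIs together with over 2 UMIs of Neurod2 and Neurod6 and no UMI of Gad1 or Gad2, among 3418 cells with that Neurod level and no Gad UMI, against 0 of 857 microglia with 5 Sst UMIs. DIV1 held 5 of them, the DIV3 libraries 0 and 1, those of DIV5 2 and 14 and those of DIV7 4 and 1. Their highest Sst count was 192 UMIs, in the DIV1 library, and at most 16 elsewhere. Npy was detected in 4 of the 27, Lhx6 in 2 and Cort in 0, and Cck, a peptide gene of pyramidal-type cells in these files (1374 of 2148 cells), in 23.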

How the results depend on the processing

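With so few cells the counts of called genes moved with most choices. Of Sst against other GABAergic cells, 48 genes became 83 with at least 5 cells per library sum, 14 with DESeq2, 109 without a filter on low counts, and, with gates chosen after seeing the data, 25 without the limit on Neurod2 and Neurod6 and 599 with Gad1 and Gad2 at 1 UMI together. Leaving out each library in turn gave 26 to 164. Of the 48 calls, 13 were still called with DESeq2, 21 without the Neurod limit, 25 with at least 10 Sst UMIs and 30 to 48 under the other 7 settings that left out no library. Under the loose Gad gate 5 changed sign, among them Dlx6os1 (0.27), Fgf13 (0.27), Igf1 (0.11) and Npas4 (0.14), and none did under the others.

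From DIV1 to DIV5, 3 calls became 0 with at least 5 cells, 5 with DESeq2, 96 without a filter, 0 without the top doublet scores, 13 with at least 1 cell, 189 without the Neurod limit, 237 with the loose Gad gate and 73 without cells holding other markers. From DIV5 to DIV7, 0 became 5 with at least 10 Sst UMIs, 3 without the Neurod limit, 1 with the loose Gad gate and 2 without cells holding other markers. The replicate block was fitted only with at least 1 cell per sum, a setting chosen after seeing the data, and gave 0 calls from DIV5 to DIV7, as without the block. The fits with the block hold 6 libraries and 1655 tested genes, against 7 and 4123 without it. DIV3 to DIV7 had 5 calls with the block and 21 without, and DIV3 to DIV5 had 0 and 9, differences that cannot be put down to the block alone. Whether same-numbered libraries pair was not checked. The r of the shares with day turned to 0.398 and 0.334 with the stricter filter, 0.308 and 0.300 without DIV1, and, among all cells, 0.0253 without DIV7 replicate 2. Leaving out each library gave -0.410 to 0.308 among all cells and -0.553 to 0.300 among GABAergic cells. Fits with the stricter filter, with thinned cells, with at least 20 cells and with most left-out libraries of the day comparisons could not be made.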
